A study of Mus musculus with 6 samples.

Results

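The folding machinery of the endoplasmic reticulum (ER) lumen was examined in mouse liver after treatment with FGF19, through 10 genes for luminal chaperones and co-chaperones: Hspa5, Hsp90b1, Hyou1, Dnajb9, Dnajb11, Dnajc3, Sdf2l1, Creld2, Manf and Calr. The genes were chosen by name, as BiP, GRP94, their J proteins and other luminal chaperones regulated by ATF6 or XBP1, and all 10 were found among the 23284 genes of the count files. All 10 also passed the filter on low counts that left 12559 genes to test. FGF19 is the human gut hormone that corresponds to mouse FGF15. Liver RNA came from male C57BL/6 mice, 8 weeks old, that had been fasted overnight and then received vehicle or FGF19 at 1 mg/kg for 6 h while the fast went on. There were 3 mice in each group, with 1 library per mouse, no genetic change in either group, and a single dose and time. Total read counts were between 18994654 and 22920056 per library.

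Secreted and membrane proteins enter the ER unfolded, and a liver cell, which makes most plasma proteins, depends on the chaperones there. BiP, encoded by Hspa5, is the Hsp70 of the lumen: it binds exposed hydrophobic stretches, J proteins stimulate its ATPase and bring it clients, and nucleotide exchange factors release them. When unfolded proteins accumulate, the sensors IRE1, PERK and ATF6 start the unfolded protein response (UPR), and the transcription factors XBP1 and cleaved ATF6 then raise the genes of luminal chaperones through elements in their promoters.

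The classical element of this kind is the ER stress response element (ERSE), in which a CCAAT box, bound by NF-Y, is joined by a spacer to CCACG, bound by ATF6 or XBP1. Promoter windows from 250 bases before to 50 bases after the annotated start were found for 8 of the 10 genes in RefSeq sequences of build GRCm38.p6. Hyou1 and Manf had none. The letters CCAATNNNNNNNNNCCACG, searched on both strands, were found in the windows of 5 of these 8 genes, Hspa5, Hsp90b1, Dnajc3, Creld2 and Calr, and in 0.119% of all 32851 windows. Because the genes had been picked as ATF6 or XBP1 targets, this is a description of the set and no independent result. The upstream stretches that hold the matches are shown because they are the best known route from the UPR to these genes. Each is written 5′ to 3′ along the gene, and capitals mark ERSE matches, looser matches of the letters CCAATNNNNNNNNNCCA, which each ERSE match also contains, and the letters TGACGTG of the core of the UPR element. A match on the other strand reads from CGTGG, or TGG for the looser letters, to ATTGG.
Hspa5, chr2:34771923-34772053, plus strand: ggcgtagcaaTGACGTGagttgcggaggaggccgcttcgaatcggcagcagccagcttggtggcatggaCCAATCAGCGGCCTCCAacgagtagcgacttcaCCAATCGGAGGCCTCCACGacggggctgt
Hsp90b1, chr10:86705523-86705666, minus strand: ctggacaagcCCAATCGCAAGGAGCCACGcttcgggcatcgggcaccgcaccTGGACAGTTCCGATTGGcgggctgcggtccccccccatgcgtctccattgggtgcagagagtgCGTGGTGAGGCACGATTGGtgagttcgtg
Dnajc3, chr14:118937817-118937855, plus strand: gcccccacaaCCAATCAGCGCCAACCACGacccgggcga
Creld2, chr15:88819510-88819548, plus strand: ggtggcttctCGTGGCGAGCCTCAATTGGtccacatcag
Calr, chr8:84847036-84847103, minus strand: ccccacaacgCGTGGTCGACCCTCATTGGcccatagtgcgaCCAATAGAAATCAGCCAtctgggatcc

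Hsp90b1 held 2 full ERSE matches, from -212 to -194 and from -107 to -89 relative to the start, and a looser match from -170 to -154. Hspa5 held a full match from -65 to -47, a looser match from -98 to -82 and the TGACGTG letters from -157 to -151. The windows of all 8 genes held at least 1 CCAAT, which 37.4% of all windows do, and at least 1 CCACG, which 32.8% do. The looser ERSE letters were in 1.09% of all windows and TGACGTG in 2.01%. Dnajb11 had no ERSE match but held the shorter ERSE-II, with the letters ATTGGNCCACG, from 8 to 18 bases after the start; 0.0365% of all windows hold it, and its first letters are also a CCAAT on the other strand. Neither ERSE letters nor ERSE-II letters were found in the windows of Dnajb9 and Sdf2l1, which says only that these letters are not there.

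**Figure D1:**
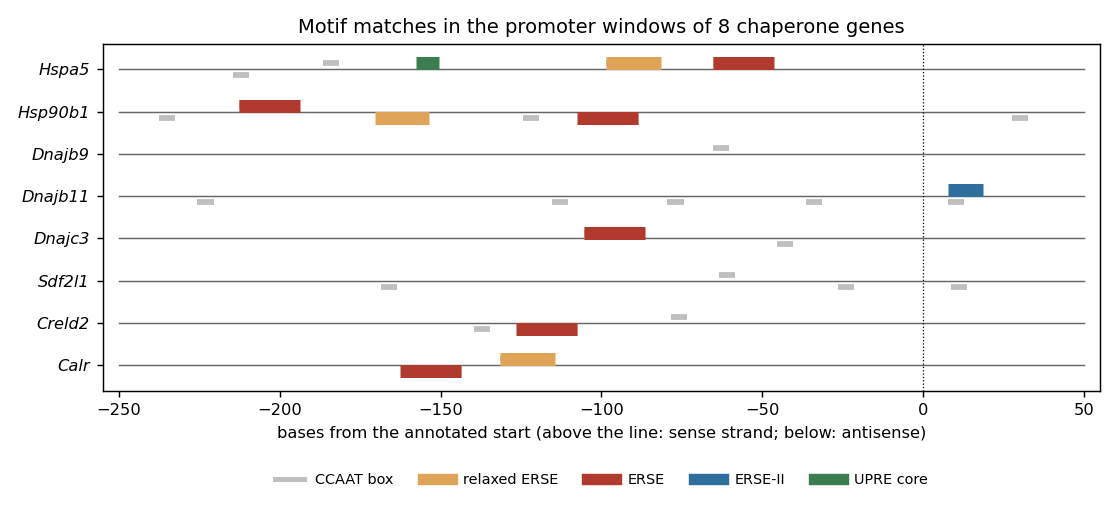
Motif matches in the promoter windows of the 8 genes with an entry, drawn to scale against the distance in bases from the annotated start, with sense-strand matches above and antisense matches below each line. Full ERSE matches (red) lie between -212 and -47 in 5 genes, and the ERSE-II match of Dnajb11 (blue) lies just after the start.

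After FGF19 treatment all 10 chaperone genes had a higher mean, and 9 of them rose by the quasi-likelihood test of edgeR, called where the p adjusted by Benjamini-Hochberg over all genes tested was under 0.05. Over all genes, 4.56% were higher at this threshold, and 49.9% had a log2 fold change above 0. The 10 genes were chosen with earlier results of these data known, so such comparisons describe the set. The log2 fold changes of the 10 genes ran from 0.69 for Dnajb9 to 2.74 for Sdf2l1, with a median of 1.44, where the median over all genes tested was -0.00. In 9 of the 10 genes every FGF19-treated mouse was above every vehicle-treated mouse, which was so for 14.5% of all genes tested. The exception on both counts was Dnajb9. At the threshold named in the study's methods, p under 0.01 without adjustment, all 10 genes passed, where 6.2% of all genes tested were higher. Read counts in whole liver cannot tell a change in the number of cells of a type from a change in the RNA per cell. Together the 10 genes took 0.286% ± 0.0253 (SD, n = 3) of all counted reads in vehicle-treated mice and 0.717% ± 0.147 (SD, n = 3) in FGF19-treated mice, a ratio of 2.51.

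**Figure D2:**
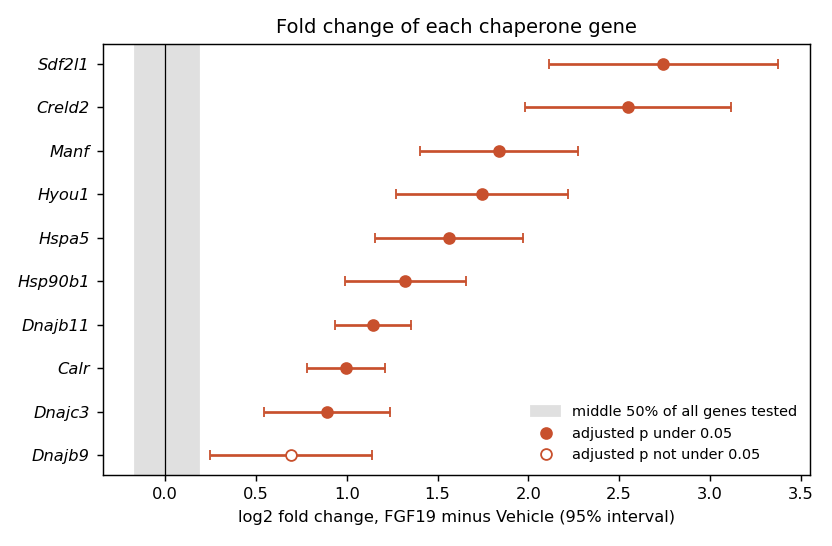
Log2 fold change of each chaperone gene, FGF19 minus Vehicle, with a 95% interval derived from the quasi-likelihood test of edgeR (n = 3 mice per group). Filled points have an adjusted p under 0.05 and the grey band holds the middle 50% of all genes tested. Sdf2l1 and Creld2 lead at 2.74 and 2.55, and Dnajb9, the open point, is lowest at 0.69.

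Per length of exon, BiP, GRP94 and calreticulin were the most abundant members. Hspa5 (BiP) lies on chromosome 2 of build mm9 from 34627610 to 34632049, and its counts cover 8 merged exons. Its level, in CPM (reads of the gene relative to the size of the TMM-scaled library), was 682, 734 and 579.9 CPM in vehicle-treated mice and 2352, 2142 and 1409.8 CPM in FGF19-treated mice, for replicates 1, 2 and 3. The groups lay far apart, with the lowest FGF19-treated mouse at 1.92 times the highest vehicle-treated mouse. The log2 fold change was 1.56 (standard error 0.18, 95% interval 1.16 to 1.97, adjusted p = 0.00125 from the edgeR test), or 2.96-fold. Hsp90b1 (GRP94), the Hsp90 of the ER lumen, which folds a narrower set of clients such as integrins and Toll-like receptors, lies on chromosome 10 from 86153586 to 86168189 with 18 merged exons. It was at 790.2, 839.9 and 740.4 CPM with vehicle and at 2324, 2077 and 1527 CPM with FGF19. Again no mice of the groups overlapped, and FGF19 replicate 3 was the lowest of its group. Hsp90b1 rose by 1.32 on the log2 scale (standard error 0.15, 95% interval 0.99 to 1.65, adjusted p = 0.00106 by edgeR).

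Calr encodes calreticulin, the soluble lectin chaperone that holds monoglucosylated glycoproteins and stores calcium. The gene lies on chromosome 8 from 87365987 to 87370830, with 9 merged exons. Its 3 vehicle values were 849, 827 and 728 CPM, and its 3 FGF19 values were 1663, 1556 and 1573 CPM. The FGF19-treated mice were close to each other, with a coefficient of variation of 3.62%, the smallest of the 10 genes in that group, and all lay above every vehicle-treated mouse. Calr rose 1.99-fold (log2 fold change 0.995, standard error 0.095, adjusted p = 0.000420 in the edgeR test). Hyou1 (GRP170), a large Hsp70-like protein that also serves as a nucleotide exchange factor of BiP, lies on chromosome 9 from 44187573 to 44200452 with 26 merged exons. Its level went from 128, 151 and 110.0 CPM to 529.7, 484 and 291 CPM. Hyou1 rose 3.36-fold (log2 fold change 1.75, standard error 0.21, adjusted p = 0.00157 by edgeR), and FGF19 replicate 3 was again the lowest of its group.

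The 3 ER J proteins had log2 fold changes of 0.69 to 1.14, all under the median of the members. Dnajb11 (ERdj3), a soluble J protein that binds unfolded clients and passes them to BiP, lies on chromosome 16 from 22857918 to 22879707 with 11 merged exons. It was measured at 92.7, 99.2 and 83.7 CPM in vehicle-treated mice and at 213, 203 and 192 CPM in FGF19-treated mice. The FGF19 values spread by a coefficient of variation of 5.17%, and Dnajb11 had the smallest p of the 10 genes (log2 fold change 1.14, standard error 0.09, adjusted p = 0.000216 in the edgeR test). Dnajc3 (p58IPK), a J protein with tetratricopeptide repeats that is also known as an inhibitor of PERK, lies on chromosome 14 from 119337154 to 119380924 with 12 merged exons. Its values were 223, 215 and 185 CPM with vehicle and 427, 439 and 289.7 CPM with FGF19. The gap between the groups was narrow, with the lowest FGF19-treated mouse at 1.30 times the highest vehicle-treated mouse. Dnajc3 rose 1.85-fold (log2 fold change 0.89, standard error 0.15, adjusted p = 0.00945 by edgeR), and this call was lost without Vehicle replicate 3 (adjusted p = 0.0586, where the other 12 alternative fits kept it).

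Dnajb9 (ERdj4), a J protein that takes part in ER-associated degradation and restrains IRE1, was the member that did not pass. It lies on chromosome 12 from 45306884 to 45311055, with 3 merged exons. Vehicle-treated mice were at 57.7, 47.5 and 50.9 CPM, and FGF19-treated mice at 101.8, 95.3 and 55.5 CPM. FGF19 replicate 3 fell inside the vehicle range, while replicates 1 and 2 were near each other and above it. The log2 fold change was 0.69 (standard error 0.20, 95% interval 0.25 to 1.14, adjusted p = 0.0694 in the edgeR test). Without FGF19 replicate 3 it was 0.93 with an adjusted p of 0.00085, and the 13 alternative fits gave adjusted p between 0.00085 and 0.222, with 4 of them under 0.05.

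**Figure D3:**
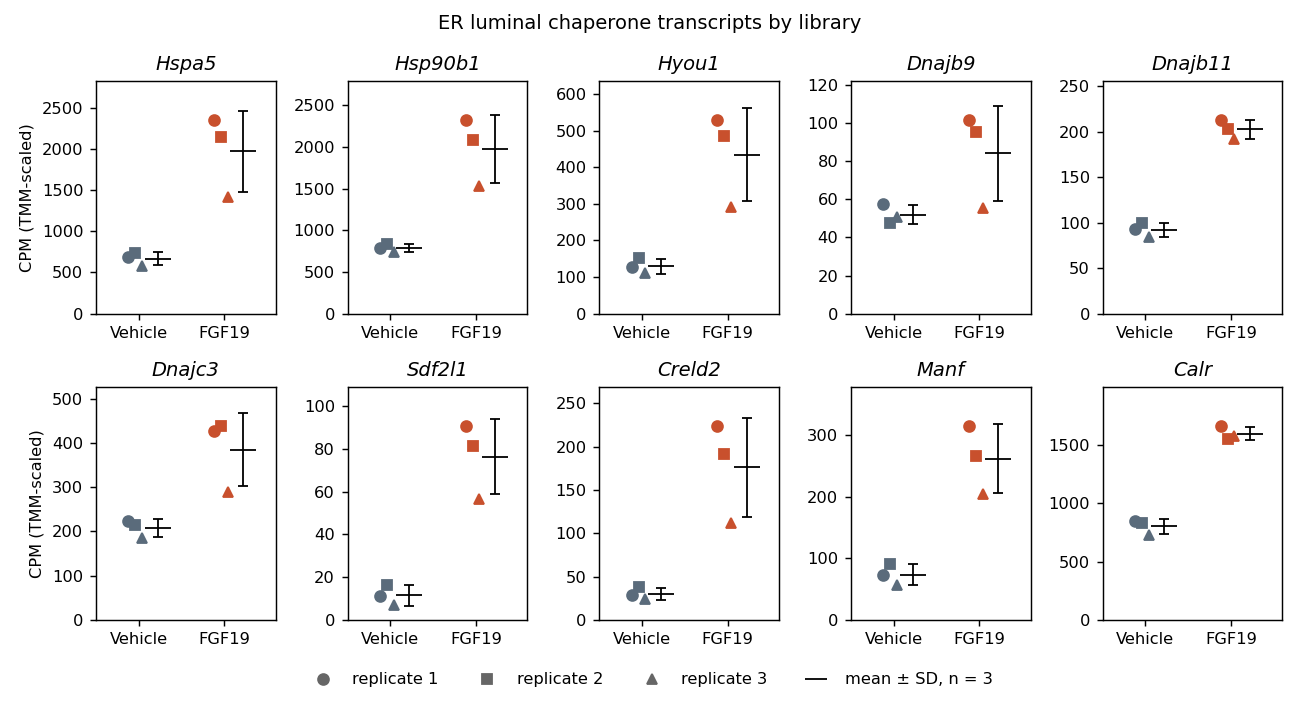
Level of each chaperone gene in CPM on TMM-scaled libraries, 1 panel per gene with axes from 0; symbols are the replicates and the black bar is the mean ± SD (n = 3). The groups overlap for Dnajb9, where FGF19 replicate 3 is at 55.5 CPM and Vehicle replicate 1 at 57.7 CPM, and for no other member.

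The largest rises were those of Sdf2l1, Creld2 and Manf, none of which is an Hsp70, an Hsp90 or a J protein. Sdf2l1, which joins ERdj3 and BiP in a chaperone complex, lies on chromosome 16 from 17130231 to 17132476 with 3 merged exons. It was also the least abundant member per length in the vehicle group, and its CPM values there were 11.2, 16.3 and 6.80, from 234, 308 and 137 reads. In FGF19-treated mice it reached 90.7, 81.5 and 56.7 CPM. Sdf2l1 rose 6.69-fold (log2 fold change 2.74, standard error 0.28, 95% interval 2.11 to 3.37, adjusted p = 0.000628 in the edgeR test). Its vehicle-treated mice also spread most among the 10 genes, with a coefficient of variation of 41.7%. Creld2, a cysteine-rich protein with EGF-like domains that acts on disulfide bonds, lies on chromosome 15 from 88650076 to 88657111 with 10 merged exons. It moved from 28.5, 37.8 and 24.1 CPM to 223.9, 191.9 and 112 CPM. Creld2 rose 5.84-fold (log2 fold change 2.55, standard error 0.25, adjusted p = 0.000521 by edgeR).

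Manf encodes a small secreted protein of the ER that binds BiP and is released under ER stress. The gene lies on chromosome 9 from 106789746 to 106794269, with 4 merged exons. Its levels were 72.0, 90.9 and 56.7 CPM with vehicle and 315, 267 and 204 CPM with FGF19. Manf rose 3.58-fold (log2 fold change 1.84, standard error 0.19, adjusted p = 0.000741 in the edgeR test), and the lowest FGF19-treated mouse was at 2.24 times the highest vehicle-treated mouse. For none of the 10 genes does an exon share positions with an exon of another gene in the annotation used for counting.

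Levels were also compared per length, as RPKM, which is CPM divided by the summed exon length in kilobases. In vehicle-treated mice Calr led at 412 ± 32.9 RPKM (SD, n = 3), followed by Hsp90b1 at 286 ± 18.0 RPKM and Hspa5 at 254 ± 30.03 RPKM, and the mice of the latter genes overlapped in range. All other members were at or below 40.0 ± 3.86 RPKM, the level of Dnajc3. From Dnajc3 down through Manf, Hyou1, Dnajb11 and Dnajb9 to Creld2, each neighbour overlapped the next, and Sdf2l1 stood below them at 10.3 ± 4.30 RPKM. In FGF19-treated mice Calr at 822 ± 29.8 RPKM, Hspa5 at 752 ± 189 RPKM and Hsp90b1 at 716 ± 148 RPKM overlapped in that order. Creld2 moved from rank 9 to rank 4, at 129 ± 42.1 RPKM, and Sdf2l1 from rank 10 to rank 8, at 68.9 ± 15.9 RPKM, but from Creld2 through Manf, Hyou1, Dnajc3 and Sdf2l1 to Dnajb11 each neighbour overlapped the next. Dnajb9 was then last at 45.1 ± 13.4 RPKM, below Dnajb11 in every FGF19-treated mouse.

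Whether members changed by unlike amounts was examined on the log2 ratio of each gene to Hspa5 within a library, which does not depend on library scaling. The ratio of Sdf2l1 to Hspa5 was -5.93, -5.49 and -6.41 in vehicle-treated mice and -4.70, -4.72 and -4.64 in FGF19-treated mice, a difference of 1.26. That of Creld2 differed by 0.98, that of Manf by 0.30 and that of Hyou1 by 0.17, each higher in all 3 FGF19-treated mice than in any vehicle-treated mouse. The ratio fell by 0.89 for Dnajb9, by 0.67 for Dnajc3, by 0.54 for Calr and by 0.24 for Hsp90b1, each lower in all 3 FGF19-treated mice than in any vehicle-treated mouse. For Dnajb11 it fell by 0.39 with overlapping groups. Hspa5 itself rose 2.96-fold, so the ratio also goes down for genes that did not change. The share of all genes with such a separation in their ratio to Hspa5 was not computed. Two-sided exact permutation tests gave p = 0.1 for each gene but Dnajb11 (p = 0.3). Adjusted over the 9 ratios, p was 0.113 for each gene but Dnajb11, where it was 0.3. With 3 mice against 3 this permutation test cannot give a p under 0.1. It therefore could not decide whether members changed by unlike amounts, and no other test of the ratios was run.

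The rise differed in size between the FGF19-treated mice. The median of the 10 genes above the vehicle mean, on the log2 scale, was 1.69 in replicate 1, 1.55 in replicate 2 and 1.08 in replicate 3. FGF19 replicate 3 was the lowest of its group in 9 of the 10 genes, Calr being the exception. Over all 573 genes called higher it was the lowest in 57.4%, and over all genes tested in 39.3%. Relative to the mean of the other two FGF19-treated mice it stood at 0.540 for Creld2, 0.563 for Dnajb9, 0.573 for Hyou1 and 0.627 for Hspa5, but at 0.924 for Dnajb11 and 0.977 for Calr. In the vehicle group, replicate 3 was the lowest in 9 of the 10 genes, Dnajb9 being the exception, against 30.3% of all genes tested. Vehicle replicate 2 was the highest of its group for 7 members and replicate 1 for 3.

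**Figure D4:**
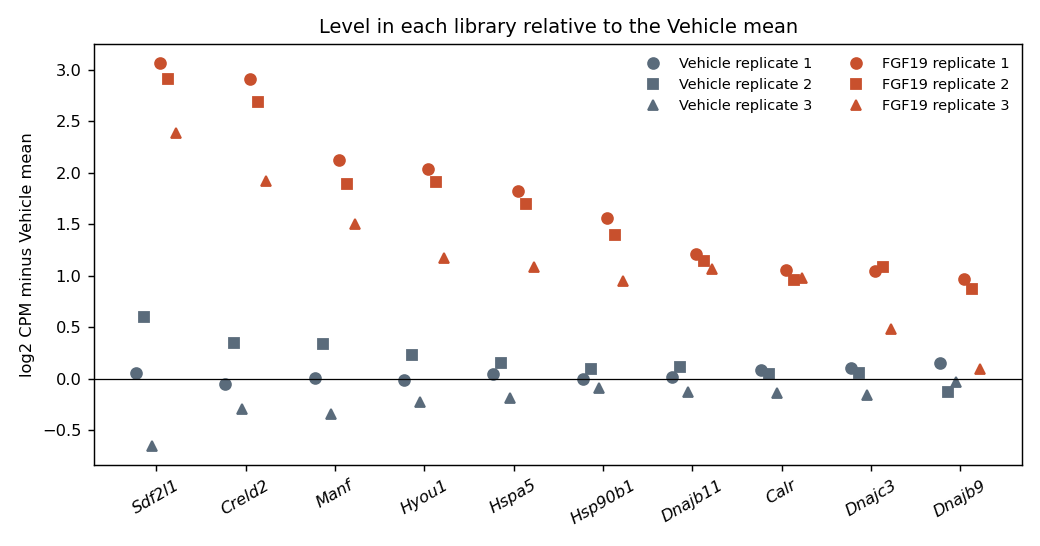
Log2 CPM of each chaperone gene in each library minus the mean of the vehicle-treated mice, with genes ordered by fold change; grey symbols are Vehicle and orange symbols FGF19 replicates. FGF19 replicate 3 (orange triangles) is lowest of its group in all genes but Calr, with its largest shortfall for Creld2 (0.540 of the mean of replicates 1 and 2).

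When single libraries were dropped, between 8 and 10 members were called higher. Over all genes, in place of 573 genes called higher there were 323 without Vehicle replicate 1, 236 without Vehicle replicate 3, and, of the FGF19 libraries, 295 when replicate 1, 276 when replicate 2 and 1015 when replicate 3 was dropped. All 10 log2 fold changes were above 0 in each of the 13 alternative fits, which reuse the same libraries and so are not independent of the main fit.

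The other genes of ER folding and quality control were taken as lists chosen by function and read against the same background of 4.56%. These lists, too, were chosen with earlier results of these data known, so their counts describe the sets and are no independent result. Among 15 disulfide isomerases and oxidases, which form and shuffle the disulfide bonds of secreted proteins, 10 rose and none passed the test in the lower direction, with a median log2 fold change of 0.52. Pdia4 led, from a mean ± SD of 180 ± 14.6 CPM with vehicle to 477 ± 111 CPM with FGF19 over 3 mice each (log2 fold change 1.41, adjusted p = 0.00106 in the edgeR test), and Pdia6 and the oxidase gene Ero1lb followed at 1.22 and 1.13. P4hb, the main isomerase of the lumen and the most abundant gene of the list, rose by 0.52 on the log2 scale (adjusted p = 0.0104 by edgeR). The count was 5 without Vehicle replicate 3 and 6 without FGF19 replicate 2, P4hb lost its call in both, and Ero1lb without Vehicle replicate 3 (adjusted p = 0.0587 by edgeR). Pdia4 shares exon positions with Mir704 and Pdia6 with Atp6v1c2, where reads that fit both genes were left out.

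Of the 16 tested genes of ER-associated degradation, which returns misfolded proteins to the cytosol for the proteasome, 7 rose, with a median of 0.28. Derl3, a derlin of the retrotranslocation channel, had a mean ± SD over 3 mice of 1.75 ± 1.07 CPM without FGF19 and 38.9 ± 14.3 CPM with it. Its log2 fold change was 4.49 (SE 0.38, adjusted p = 0.000238 by edgeR), and the highest among the members was 2.74. That of Derl3 was 5.08 without Vehicle replicate 2 and between 4.16 and 5.08 over the libraries left out, and Derl3 was not tested where at least 1 CPM was asked of every library. The ubiquitin ligase gene Syvn1 rose by 1.496 (adjusted p = 0.00690) and its partner Sel1l by 0.74 (adjusted p = 0.0459) by edgeR, and Syvn1 shares exon positions with Mrpl49. Sel1l kept its call in 6 of 13 alternative fits. The count was 4 without Vehicle replicate 1, Vehicle replicate 2, FGF19 replicate 1 or FGF19 replicate 2, and 3 when Vehicle replicate 3 was dropped, and 4 with no TMM scaling.

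Of 10 genes for lectin chaperones and glycan processing, 2 rose, with a median of 0.35. These were Uggt1, the glucosyltransferase that senses unfolded glycoproteins, at 0.76 (adjusted p = 0.0153 in the edgeR test), and the glucosidase gene Mogs at 0.45 (adjusted p = 0.0127). Canx, the membrane-bound counterpart of calreticulin, was at 229 ± 12.7 CPM with vehicle and 300.2 ± 49.4 CPM with FGF19 (SD, n = 3 mice each, adjusted p = 0.0905 by edgeR), with no overlap between the groups, and Mlec had a log2 fold change of 0.49 (adjusted p = 0.0612). The count was 1 without Vehicle replicate 1, 0 without Vehicle replicate 3, FGF19 replicate 1 or FGF19 replicate 2, and 5 without FGF19 replicate 3.

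Of 12 sensors and transcription factors of the UPR, 2 rose at the RNA level, with a median of 0.30. Xbp1 had a mean ± SD over 3 mice of 189 ± 12.2 CPM without FGF19 and 258 ± 11.2 CPM with it (log2 fold change 0.44, adjusted p = 0.0155 in the edgeR test), and Atf6b rose by 0.54 (adjusted p = 0.0148). The counts do not show which share of Xbp1 was spliced by IRE1. Atf6 had a log2 fold change of 0.28 (adjusted p = 0.215), Eif2ak3, which encodes PERK, of 0.32 (adjusted p = 0.324), Ern1, which encodes IRE1, of -0.16 (adjusted p = 0.700) and Creb3l2 of 0.47 (adjusted p = 0.465) by edgeR. Atf4 was at 0.21 (adjusted p = 0.251) and Ddit3, the gene of CHOP, which shares exon positions with Mars, at 0.30 (adjusted p = 0.231). Leaving out Vehicle replicate 1 or Vehicle replicate 3 left 0 of the 12 called, leaving out FGF19 replicate 1 or FGF19 replicate 2 left 1, and without FGF19 replicate 3 there were 5.

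Of 12 targets of the PERK and ATF4 branch, 4 rose and 1 fell, with a median of 0.18, where 2.84% of all genes tested were called lower. Nupr1, a stress-induced chromatin protein, rose by 1.58 from 0.707 ± 0.189 CPM to 2.11 ± 0.570 CPM (SD, n = 3 mice each, adjusted p = 0.0164 in the edgeR test), and Psat1, of serine synthesis, by 1.49 from 0.569 ± 0.0829 CPM to 1.61 ± 0.520 CPM (adjusted p = 0.0270). Vldlr, a lipoprotein receptor, fell by 0.99 on the log2 scale (adjusted p = 0.0141). The other 2 that rose were Asns, with a log2 fold change of 0.95 (adjusted p = 0.0286 by edgeR), and Sesn2, with 0.58 (adjusted p = 0.0307). The calls of the list were unsteady, and leaving out Vehicle replicate 1 or Vehicle replicate 3 left 0 called higher, and the other vehicle or FGF19 libraries left between 1 and 4, with 1 without FGF19 replicate 2 and 2 without Vehicle replicate 2 or FGF19 replicate 1. With a minimum of 1 CPM in every library 2 were called higher. Vldlr was not called without Vehicle replicate 3 or FGF19 replicate 2.

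**Figure D5:**
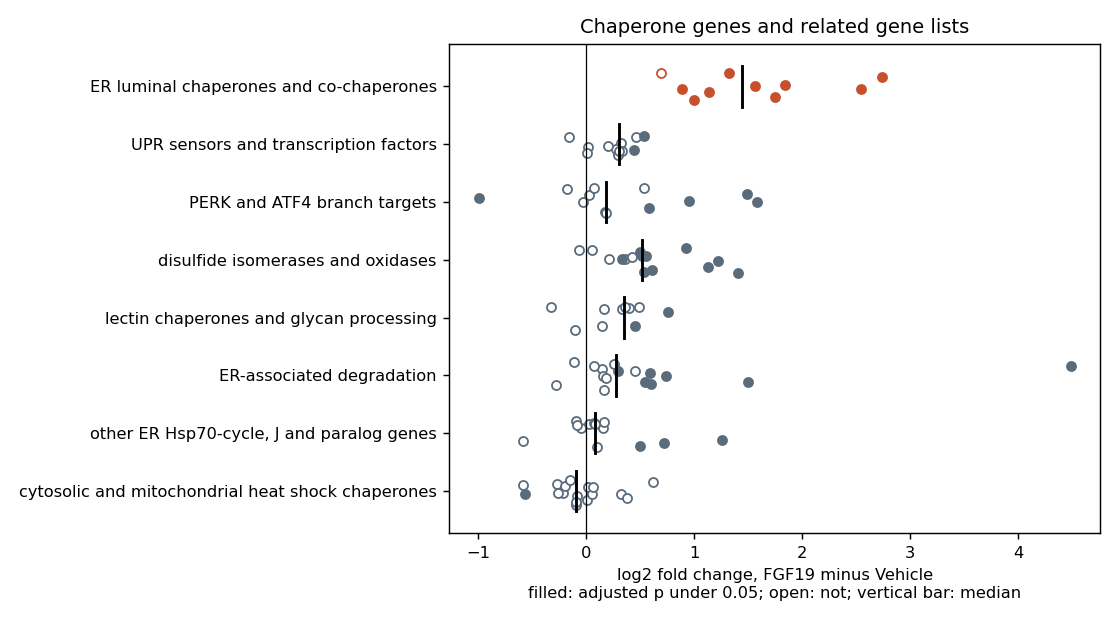
Log2 fold changes, FGF19 minus Vehicle, of the 10 chaperone genes and of the tested genes of 7 related lists; filled points passed the quasi-likelihood test of edgeR (adjusted p under 0.05), open points did not, and vertical bars are medians. The medians run from 1.44 for the chaperone members to -0.10 for the cytosolic and mitochondrial heat shock chaperones, and the point at 4.49 is Derl3.

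Close relatives of the members were also examined. In a list of 13 further genes of the ER Hsp70 cycle, other ER J proteins and paralogs, 3 rose, with a median of 0.08. Hspa13, an Hsp70-like gene of the microsomes, rose by 1.26 (adjusted p = 0.00452 in the edgeR test), Serp1, which stabilizes membrane proteins, by 0.72 (adjusted p = 0.00314), and Ppib, the luminal cyclophilin gene, was the third. Serp1 shares exon positions with Eif2a and Ppib with Snx22. Paralogs of the 3 members with the largest rises did not pass the test. Sdf2, the paralog of Sdf2l1, was at 22.98 ± 2.01 CPM with vehicle and 21.7 ± 2.21 CPM with FGF19 (SD, n = 3 mice each, adjusted p = 0.725 by edgeR). Creld1 had a log2 fold change of 0.08 (adjusted p = 0.676) and Cdnf, the paralog of Manf, of -0.59 (adjusted p = 0.361) at a mean of 1.03 CPM. Sil1, the other nucleotide exchange factor of BiP, was at 48.6 ± 4.39 CPM with vehicle and 52.0 ± 5.90 CPM with FGF19 (SD, n = 3 mice each, adjusted p = 0.662 in the edgeR test).

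The cytosolic and mitochondrial heat shock chaperones, many of which are targets of the heat shock factor HSF1, had a median of -0.10. Of the 17 tested, 0 rose and 1 fell in the edgeR test, while DESeq2 and the likelihood ratio test each called 1 higher. At an unadjusted p under 0.05, 1 was higher and 2 were lower, where 11.6% of all genes tested were higher and 11.3% lower. Hspa8, the constitutive cytosolic Hsp70, fell (mean ± SD of 3 mice, 783 ± 91.7 CPM and then 529 ± 34.0 CPM, log2 fold change -0.57, adjusted p = 0.0136 by edgeR). The call of Hspa8 was lost without FGF19 replicate 1 or FGF19 replicate 2, and reads shared with its processed copies were left out of the counts. Hsp90ab1, the cytosolic Hsp90, was at -0.22 (adjusted p = 0.177), Hspb1 at 0.62 (adjusted p = 0.0724) and Hspa1b, which has a near-identical neighbour, at -0.59 (adjusted p = 0.302). Without FGF19 replicate 3 there were 2 genes of this list called higher.

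The genes whose level over the 6 libraries was most like the average of the members were found by the root mean squared difference between log2 profiles, each relative to its vehicle mean. The members' profile was their average, and genes with a mean of at least 10 CPM were considered. Among the 10 nearest were, in order, Slc17a9 (0.089), Pdia4 (0.131), AW112010 (0.185), Psmb10 (0.189), Cad (0.193), Syvn1 (0.200), Itih4 (0.232) and Crp (0.233), with each value in log2 units. The log2 fold changes of these genes ran from 1.31 for Crp to 1.62 for AW112010. This closeness describes 6 libraries in 2 groups, and says nothing of what the genes share. It is closeness to an average that most members do not follow as nearly. Hspa5 (0.044), Hyou1 (0.152) and Hsp90b1 (0.179) lay within the range of the named genes. The other members lay farther from the average than Crp, from 0.234 for Manf to 0.920 for Sdf2l1.

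Hepatocyte markers took a similar part of the reads in both groups, with summed levels of 99247 to 104361 CPM in vehicle-treated and 94380 to 103543 CPM in FGF19-treated mice, in keeping with the liver label. Most of this sum was Alb, at 68237.5 to 70445.5 CPM with vehicle and 63528.5 to 68978.5 CPM with FGF19. Of the 6 markers 0 were called, and their log2 fold changes ran from -0.22 for Ttr to 0.39 for Tat. The summed markers of Kupffer cells, endothelial cells, stellate cells, cholangiocytes and of B and plasma cells overlapped between the groups. Single markers with no overlap were Clec4g of endothelial cells, at a log2 fold change of -0.38 (adjusted p = 0.0736 by edgeR), Reln of stellate cells, at -0.46 (adjusted p = 0.0984), and, of Kupffer cells, Emr1, at 0.36 (adjusted p = 0.155), besides Marco and Vsig4. Over all genes tested, 14.5% were higher in every FGF19-treated mouse, and the share lower in every FGF19-treated mouse was not computed. Of 6 Kupffer cell markers 1 rose, Marco, at a log2 fold change of 2.29, while their sum was 175 to 223 CPM with vehicle and 177 to 209 CPM with FGF19. Vsig4 had a log2 fold change of -0.54 (adjusted p = 0.0755 by edgeR) with no overlap between the groups, Clec4f of -0.29 and Cd5l of -0.22, so the sum joins values of opposite sign. The 4 neutrophil markers found summed to between 0.477 and 1.59 CPM with vehicle and between 3.07 and 4.50 CPM with FGF19, where S100a9 rose and Mpo had no read in 5 of the 6 libraries; their part in the result was not tested. Pancreatic acinar cells, which are rich in the same chaperones, were represented by 6 markers that summed to between 0.191 and 0.546 CPM with vehicle and between 0.679 and 1.19 CPM with FGF19, higher in every FGF19-treated mouse. Most of this was Cela2a, which did not pass the test (adjusted p = 0.147 by edgeR), and their part in the result was not tested either. Cpa1, Prss2 and Pnlip were at or near 0 in every library. Ctrb1 had no read, which by counting error alone leaves room for 3 counts per library, the same as 0.131 to 0.158 CPM.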

How the data were processed

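RNA-seq of 6 mouse livers was analysed. The authors aligned paired-end reads with STAR (2.5.3a in the submitters' processing notes; the methods name another version) and counted them with featureCounts 1.5.2 on mm9 exons, and the deposited values are raw read counts per gene. Per the file headers strand was not used, mates were counted singly, and by the program's defaults reads of several places or several genes were left out. The authors' table of their own comparison holds log fold changes, mean expression, p-values and false discovery rates and was not used.

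Counts were tested in R 4.3.3 with edgeR 4.0.16 (filterByExpr defaults, TMM scaling, quasi-likelihood test without covariates, Benjamini-Hochberg adjustment over 12559 genes, calls under 0.05). Standard errors were derived from the test, as the absolute log2 fold change divided by the square root of its F statistic. Intervals are at 95%, from the t distribution with the degrees of freedom of the test. Total counts were 18994654 to 22920056, TMM factors 0.964 to 1.03. No libraries agreed within sampling noise: the chi-square per degree of freedom was at least 8.25. Alternatives were DESeq2 1.42.0, limma-voom (limma 3.58.1), the likelihood ratio test, no TMM scaling, other filters, the replicate number as a block and each library left out. The fits were tested on simulated data. Motifs were searched in Python 3.11.15.

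The members, lists and tests were chosen with earlier results of these data known. Named were all 10 members, the 3 largest changes of each list among genes with a mean of at least 1 CPM, 14 further genes fixed by name and the 10 genes nearest in profile; Ppib, Asns, Sesn2 and marker genes were named after their values were seen. Some genes that this rule names are not reported here.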

Additional observations from a re-analysis of the deposited data

How the results depend on the processing

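Between 8 and 10 of the 10 chaperone genes were called higher in every alternative, and 8 of the 10 genes, all but Dnajb9 and Dnajc3, kept their call in each of the 13 fits. Dnajb9 was called with DESeq2 (log2 fold change 0.69, adjusted p = 0.00841), the likelihood ratio test (0.69, adjusted p = 0.0140) and no filter (0.69, adjusted p = 0.0441), and ranged from 0.53 to 0.93 with a library left out. Dnajc3 ranged from 0.79 to 1.06. Over all genes, the lower genes numbered 357 in edgeR's quasi-likelihood test, 626 at p under 0.01 without adjustment and 579 with the likelihood ratio test. With a library left out, between 236 and 1015 genes were higher and between 91 and 926 lower. The cause was not tested. Replicate numbers are shared by the groups, but same-numbered mice did not deviate together (correlations across genes of -0.03, -0.18 and -0.18), and no mouse correlated best with its own number. With the replicate block 370 genes were higher and 164 lower, and 9 of the 10 chaperone genes were called. The block left 0 of the UPR sensors and transcription factors called higher (Xbp1 at adjusted p = 0.0572 and Atf6b at 0.0503), 2 of the PERK and ATF4 targets and 1 of the lectin and glycan genes (Mogs at 0.0571). Nupr1, Psat1 and Cdnf had means near 1 CPM, where single libraries hold few reads.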
